A study of Saccharomyces cerevisiae with 10 samples.

Results

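The step from 2 h to 4 h of drying in baker's yeast (Saccharomyces cerevisiae) was described by setting the 2 arrays labelled 4 h against the 2 arrays labelled 2 h, 4 of the 10 arrays of a time course with 2 arrays at each of 0, 1, 2, 4 and 8 h. Per the labels, fed-batch grown and compressed baker's yeast lay on trays in a dry oven with air blown at 37 degrees. The labels name no strain, genotype or gene alteration, and every group is the same yeast at another time. Both compared groups had been in the warm air, and no group was kept warm without drying, so time, warmth and water loss cannot be told apart. Poly(A) RNA was measured on Affymetrix Yeast Genome S98 arrays, which carry short probes in sets for each gene. Duplicates were stated to be independent experiments, without naming separate cultures, so the spread between them may be in part technical.

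Yeast that loses water slowly has time to adjust its messenger RNAs before metabolism stops. The known responses of yeast to heat, osmotic stress and nutrient limitation include heat shock chaperones, which hold or refold damaged proteins, trehalose and glycerol synthesis, which protect cells against drying, and the proteasome, which degrades proteins. Growth functions such as ribosome assembly are usually turned down in the same responses. Glucose transporters, permeases and the GID ubiquitin ligase, which removes enzymes of gluconeogenesis when glucose returns, follow the supply of sugar and nitrogen.

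Each level below is a signal as a multiple of its array's median, and each difference is on the log2 scale of that multiple, 4 h minus 2 h. A multiple under 0.1 was set to 0.1, the floor. Array medians were 28.7 and 61.0 at 2 h, replicate 1 first, and 80.1 and 73.9 at 4 h, while the other 6 arrays ranged from 23.6 to 115.4. The 3' to 5' ratio of the actin control, which rises when RNA or cDNA is shortened, was 6.64 and 3.07 at 2 h and 3.15 and 3.1 at 4 h. The dimmer 2 h array, replicate 1, therefore also had the higher ratio. At 0, 1 and 8 h replicate 1 was likewise the dimmer array with the higher ratio. Replicate arrays correlated at r = 0.942 at 2 h and 0.962 at 4 h over 5365 genes, and the 4 pairs made of a 2 h and a 4 h array correlated at 0.943 to 0.954. A 2 h array thus resembled the 4 h arrays about as closely as its own replicate. The parts of brightness and RNA integrity in the results were not tested beyond leaving out each array.

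The single arrays at 2 h were farther apart than the group means of 2 h and 4 h. A mean of 2 arrays varies less than a single array, so these differences are not like for like. The median absolute difference of a gene between the 2 arrays was 0.40 at 2 h and 0.29 at 4 h, against 0.28 between the means of the groups. More than 2-fold gaps between replicates were seen for 721 genes at 2 h and 401 at 4 h. Between the group means, 279 genes stood at least 2-fold apart, 172 of them higher and 107 lower at 4 h. The median 95% interval of a gene's difference reached 0.68 to either side, so smaller differences were mostly not detectable with these 4 arrays.

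**Figure D1:**
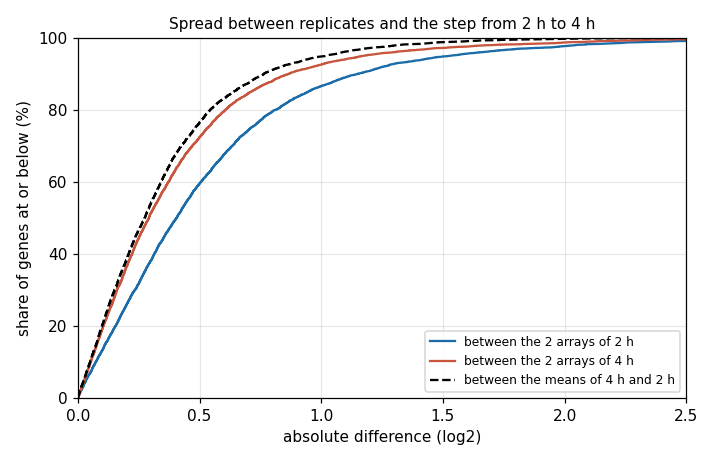
Cumulative share of the 5365 genes (y axis, percent) at or below an absolute log2 difference (x axis), for the 2 arrays of 2 h, the 2 arrays of 4 h and the means of 4 h and 2 h. The line for the 2 h replicates lies to the right of the others, with a median of 0.40 against 0.29 for the 4 h replicates and 0.28 for the step. The step is a difference between means of 2 arrays, which vary less than single arrays.

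No gene passed the test for the step. In limma, 0 of 5365 genes were higher (0.0%) and 0 were lower (0.0%) at an adjusted p under 0.05, and the smallest adjusted p was 0.307. At an unadjusted p under 0.05 there were 300 higher genes (5.59%) and 99 lower genes (1.85%), together 7.44% of those tested. Both 4 h arrays lay above both 2 h arrays for 1244 genes (23.2%) and below both for 646 genes (12.0%). The median difference over all genes was 0.08 with median scaling, and it was -0.05 when arrays were scaled by their 75th percentile, where the unadjusted counts were 182 higher and 181 lower. The excess of higher genes therefore depended on the scaling. With quantile normalization those counts were 275 and 158, and with cyclic loess 237 and 169.

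Leaving out an array made calls in 2 cases, and both rested on the array that remained alone. Without 2 h replicate 1, 29 genes were called higher and 0 lower, 22 of them protein-coding and 7 of them small nucleolar RNAs. Of those 29 genes, 28 had their lowest value of all 10 arrays on 2 h replicate 2, where the same held for 14.9% of all genes, and for 23 of them this array lay at least 2-fold under the other 9. Without 4 h replicate 1, 0 genes were called higher and 16 lower, and all 16 had their lowest value on 4 h replicate 2, against 8.29% of all genes. In these fits the lone array was assumed to vary like the other groups. Leaving out 2 h replicate 2 or 4 h replicate 2 gave 0 calls.

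Examples chosen after the values were seen show how far a single array could lie from the rest. RPL25, a protein of the large ribosomal subunit, stood at 26.4 and 18.0 at 2 h and at 20.9 and 0.51 at 4 h, while the 9 other arrays of the series ranged from 18.0 to 26.4. SEG1, an eisosome protein of the plasma membrane, stood at 2.68 and 3.31 at 2 h and at 2.74 and 0.345 at 4 h, with 2.38 to 3.31 on the 9 other arrays. URA5, a pyrimidine synthesis enzyme, and DNF1, a lipid flippase, had the same pattern, with 12.8 and 1.61 and with 7.66 and 0.841 at 4 h. In each of the 4 genes, 4 h replicate 2 had the lowest value of the series and was the only array far below the rest.

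On the 2 h side, replicate 2 was the low array. YGR054W, translation initiation factor eIF2A, stood at 1.42 and at the floor at 2 h and at 1.26 and 1.25 at 4 h, with 0.724 to 1.42 on the 9 other arrays. NOB1, the nuclease that matures the small subunit ribosomal RNA, stood at 0.948 and 0.143 at 2 h and at 1.51 and 1.43 at 4 h. COG6, a Golgi vesicle tethering subunit, was at 0.749 and 0.131 at 2 h and at 0.957 and 0.929 at 4 h, and the uncharacterised YPL229W at 8.56 and 1.57 and then at 8.0 and 12.1. None of these genes is described further as part of the step.

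The 15 genes that led on the high side were of mixed roles. They were the genes of smallest unadjusted p among those at least 2-fold higher with both 4 h arrays above both 2 h arrays, a condition met by 139 genes (2.59%). None passed, with adjusted p between 0.307 and 0.508 in limma, and their differences ran from 1.02 to 2.12. Of the 15, 14 are protein-coding and 1 is a tRNA gene.

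SUB1, a transcriptional coactivator, stood at 3.31 and 2.15 at 2 h and at 6.93 and 8.29 at 4 h. That is a difference of 1.51 ± 0.28 (SE, n = 2 arrays per time), with a 95% interval of 0.91 to 2.10 and an adjusted p of 0.307 in limma. At 1 h it had been at 6.28 and 5.29, so the 2 h arrays were the low ones of the series. RDS2, a zinc cluster activator of gluconeogenesis genes, stood at 1.62 and 1.91 at 2 h and at 4.26 and 3.29 at 4 h, 1.09 ± 0.24. CAK1, the kinase that activates cyclin-dependent kinases, stood at 0.38 and 0.462 at 2 h and at 1.09 and 0.971 at 4 h, 1.29 ± 0.32. In both, the groups did not overlap, which was a condition of choice.

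Among enzymes and wall proteins, PDC6, a minor pyruvate decarboxylase, stood at 1.58 and 1.73 at 2 h and at 3.47 and 3.68 at 4 h, a difference of 1.11 ± 0.25. KRE6, needed for the beta-1,6-glucan of the cell wall, was at 1.36 and 0.925 at 2 h and at 2.76 and 2.24 at 4 h, 1.15 ± 0.28. For SBE22, which acts in wall delivery to the bud, the values were 0.732 and 0.464 at 2 h and 1.56 and 1.3 at 4 h, and the difference was 1.29 ± 0.31. The replicates of PDC6 lay closest together of these 3 genes. PDH1, a mitochondrial protein of propionate metabolism, stood at 1.72 and 2.28 at 2 h and at 5.21 and 3.37 at 4 h, 1.08 ± 0.27. TOM71, an import receptor of the mitochondrial outer membrane, was at the floor and 0.164 at 2 h and at 0.509 and 0.605 at 4 h, so its difference of 2.12 ± 0.56 depends on the floor.

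Among the remaining genes on the high side, UBP5, a putative ubiquitin protease, stood at 0.603 and 0.444 at 2 h and at 1.41 and 2.06 at 4 h, 1.72 ± 0.40. NOP15, a factor of large ribosomal subunit assembly, stood at 1.94 and 1.35 at 2 h and at 2.98 and 5.04 at 4 h, 1.26 ± 0.33. LRP1, a partner of the nuclear exosome, stood at 1.48 and 0.682 at 2 h and at 2.48 and 2.4 at 4 h, 1.28 ± 0.34. PRM10, a pheromone-regulated membrane protein, completed the set at 2.18 and 2.06, then 4.4 and 4.2, with a difference of 1.02 ± 0.25. SUB1, LRP1 and the glucose transporter HXT1 were also among the 29 genes called without 2 h replicate 1.

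**Figure D2:**
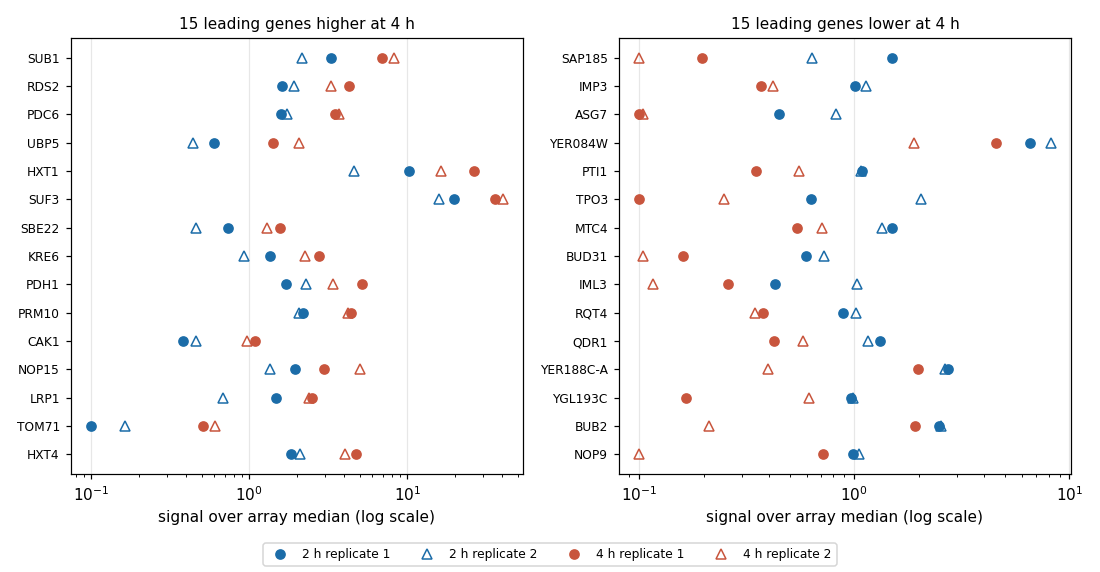
Signal over the array median (x axis, log scale) on the 4 compared arrays for the 15 leading genes higher at 4 h (left) and the 15 leading genes lower at 4 h (right). Blue marks are 2 h and red marks 4 h, with filled circles for replicate 1 and open triangles for replicate 2. The groups do not overlap, because that was a condition of choice, and for BUB2, NOP9 and YER188C-A the gap is set by 4 h replicate 2.

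On the low side, the 15 leading genes were mostly dim. They met the same conditions in the other direction, which 82 genes (1.53%) met, and 11 of the 15 had a mean below the array median over the 4 arrays. On 4 of the 15, a compared array was at the floor. Adjusted p lay between 0.307 and 0.602 in limma, and the differences between -2.85 and -1.19.

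SAP185, a partner of the Sit4 phosphatase, stood at 1.5 and 0.638 at 2 h and at 0.195 and the floor at 4 h. Its difference was -2.81 ± 0.54 (SE, n = 2 arrays per time) with a 95% interval of -3.95 to -1.66 and an adjusted p of 0.307 in limma. The other 6 arrays ranged from 0.343 to 0.913, so the 4 h arrays were the low ones. Since 4 h replicate 2 is at the floor, the size of the difference depends on the floor. Without that array the difference was -2.33. TPO3, a polyamine exporter, stood at 0.627 and 2.05 at 2 h and at the floor and 0.249 at 4 h, -2.85 ± 0.80. It was at the floor on both 1 h arrays too, and at 2 h its replicates differed more than 3-fold. QDR1, a multidrug transporter, stood at 1.32 and 1.16 at 2 h and at 0.423 and 0.576 at 4 h, -1.33 ± 0.43.

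IMP3, of the complex that processes small subunit ribosomal RNA, stood at 1.01 and 1.13 at 2 h and at 0.37 and 0.42 at 4 h, -1.44 ± 0.36. Both pairs of replicates lay close together. PTI1, of the cleavage and polyadenylation factor, was at 1.09 and 1.07 and then at 0.348 and 0.555, -1.30 ± 0.36. RQT4, of a ribosome quality control complex, was at 0.888 and 1.02 and then at 0.376 and 0.345, -1.40 ± 0.45. Separation of the groups was a condition of choice for these 3 genes, the genes are dim and no detection call was used. BUD31, a splicing factor, stood at 0.596 and 0.724 at 2 h and at 0.16 and 0.104 at 4 h, -2.35 ± 0.73, and the kinetochore protein IML3 at 0.429 and 1.03, then 0.26 and 0.116, -1.93 ± 0.61. ASG7, an a-specific gene of the mating pathway, stood at 0.449 and 0.823 at 2 h and at the floor and 0.104 at 4 h, which makes its difference of -2.58 ± 0.69 dependent on the floor.

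Other leading genes on the low side differed between their 4 h arrays. BUB2, a spindle checkpoint protein, stood at 2.47 and 2.52 at 2 h and at 1.91 and 0.212 at 4 h. NOP9, a ribosome assembly factor, was at 0.983 and 1.05, then at 0.714 and the floor. For both, 4 h replicate 2 carried most of the difference. Without that array the difference was -0.38 for BUB2, -0.51 for NOP9, -0.44 for YER188C-A and -0.68 for YER084W. The open reading frame YER188C-A was represented by its brightest probe set at -1.60, while its other probe sets gave -0.14 and -0.11. The uncharacterised YER084W stood at 6.54 and 8.18 at 2 h and at 4.55 and 1.89 at 4 h, and YGL193C at 0.965 and 0.988, then 0.165 and 0.613. MTC4 stood at 1.49 and 1.34 at 2 h and at 0.543 and 0.705 at 4 h, -1.19 ± 0.36.

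Both hexose transporters among the leading genes stood higher at 4 h, in a list whose median was near that of all genes. HXT1, the low-affinity glucose transporter, stood at 10.3 and 4.59 at 2 h and at 26.5 and 16.4 at 4 h, 1.60 ± 0.38 with an adjusted p of 0.502 in limma. HXT4, a high-affinity transporter, stood at 1.84 and 2.11 at 2 h and at 4.76 and 4.06 at 4 h, 1.16 ± 0.32. Both had fallen from 1 h to 2 h in limma, by 2.05 (adjusted p = 0.0218) and by 1.47 (adjusted p = 0.0369). These falls rest on the 2 h arrays by which both genes were chosen, so they are given as a description. Over all genes, 5.59% were higher and 1.85% lower at an unadjusted p under 0.05. Of 27 genes of hexose transport and sugar use, 3 were higher (11.1%) and 1 lower. The arrays lay apart upward for 9 (33.3%, against 23.2%) and downward for 5 (18.5%, against 12.0%). The list's median was 0.06, beside 0.08 for all genes. With 75th percentile scaling it was -0.07, beside -0.05 for all genes, and with cyclic loess -0.06, beside 0.0.

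VID24, the substrate receptor of the GID ubiquitin ligase, stood at 3.68 and 3.08 at 2 h and at 7.86 and 7.3 at 4 h, 1.17 ± 0.33 with an adjusted p of 0.508 in limma. GID10, an alternative receptor, stood at 0.627 and 0.744 at 2 h and at 1.47 and 1.22 at 4 h, 0.97 ± 0.37. Of the 10 GID genes, 3 were higher (against 5.59% of all genes) and 0 lower (against 1.85%) at an unadjusted p under 0.05, with a median of 0.20. The other members thus included values near 0, the lowest being -0.05. SFC1, the mitochondrial succinate and fumarate carrier, stood at 6.2 and 7.54 at 2 h and at 12.7 and 13 at 4 h, 0.91 ± 0.31. In its list of 28 gluconeogenesis and glyoxylate cycle genes, the arrays lay apart upward for 4 and downward for 4 (14.3% each, against 23.2% and 12.0% of all genes), and the median was -0.07.

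Among the permeases, AGP1, a broad amino acid permease, stood at 1.84 and 2.1 at 2 h and at 4.12 and 3.59 at 4 h, 0.97 ± 0.29. Its fall of 2.18 from 1 h to 2 h (adjusted p = 0.00464 in limma) rests on the same 2 h arrays by which it was chosen. PTR2, the di- and tripeptide transporter, stood at 0.944 and 0.793 at 2 h and at 1.51 and 1.43 at 4 h, 0.77 ± 0.31. DIP5, the permease for acidic amino acids, stood at 4.72 and 3.89 at 2 h and at 5.22 and 2.63 at 4 h, and GNP1, the glutamine permease, at 2.47 and 1.55, then 2.47 and 2.7. The groups of DIP5 overlapped, and those of GNP1 touched. Over 27 permeases, 4 were higher (14.8%, against 5.59% of all genes) and 0 lower (against 1.85%) at an unadjusted p under 0.05. Their median was 0.12, and the arrays lay apart upward for 7 (25.9%, against 23.2%) and downward for 1 (3.7%, against 12.0%). PUT4, the proline permease among the genes repressed by good nitrogen sources, stood at 24.5 and 37.7 at 2 h and at 67.0 and 39.6 at 4 h. In that list of 29 genes, the arrays lay apart upward for 8 (27.6%, against 23.2% of all genes) and downward for 0 (against 12.0%).

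**Figure D3:**
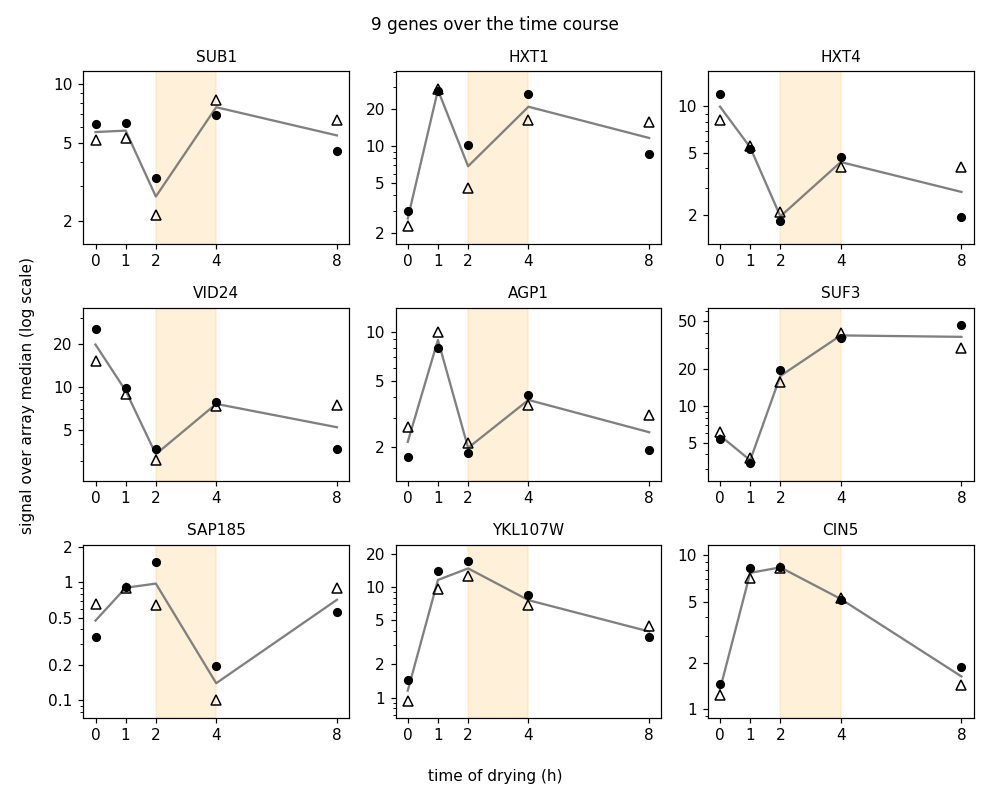
Signal over the array median (y axis, log scale) against time of drying (x axis, h) for 9 genes on all 10 arrays, with filled circles for replicate 1, open triangles for replicate 2, a line through the means of the log values and shading over 2 h to 4 h. SUB1, HXT1, HXT4, VID24 and AGP1 have lower values at 2 h than at 1 h and 4 h. Their choice by the difference from 2 h to 4 h favours low 2 h values. SUF3 stood at 3.4 and 3.75 at 1 h and at 36.1 and 40.1 at 4 h.

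Heat shock chaperones stood at separate levels at 2 h and 4 h for some members, in opposite directions for the inducible Hsp70 genes. SSA4 stood at 28.2 and 18.4 at 2 h and at 33.7 and 39.7 at 4 h, 0.69 ± 0.31. SSA3 stood at 9.5 and 8.66 at 2 h and at 6.48 and 5.86 at 4 h, -0.56 ± 0.22. Cross-hybridisation is possible here, since Hsp70 genes are alike in sequence. APJ1, an Hsp40 co-chaperone, stood at 4.22 and 3.22 at 2 h and at 7.64 and 7.47 at 4 h, 1.04 ± 0.31. SSE1, an Hsp110 exchange factor, stood at 5.96 and 5.2 at 2 h and at 11.1 and 7.61 at 4 h, 0.73 ± 0.26. None of the 4 passed, with adjusted p from 0.544 to 0.66 in limma.

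For other chaperones the groups overlapped or nearly so. HSP82, an Hsp90, stood at 30.3 and 15.3 at 2 h and at 30.5 and 29.5 at 4 h, a difference of 0.48 ± 0.33 that was -0.01 without 2 h replicate 2. HSP104, the disaggregase, was at 35.5 and 22.8, then at 24.3 and 24.8, -0.22 ± 0.30, and 0.10 without 2 h replicate 1. BTN2, which gathers misfolded proteins, stood at 26.2 and 17.5 at 2 h and at 27.6 and 35.3 at 4 h. HSP26, a small heat shock protein, was at 61.2 and 45.2, then at 47.0 and 43.2. Over the 34 chaperones, 3 were higher (8.82%, against 5.59% of all genes) and 1 lower (against 1.85%) at an unadjusted p under 0.05. Their arrays lay apart upward for 13 (38.2%, against 23.2%) and downward for 2 (5.88%, against 12.0%). The list's median was 0.17, beside 0.08 for all genes, and it was 0.28 without 2 h replicate 1 and 0.06 without 2 h replicate 2.

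No protectant or general stress gene passed, and several had 2 h replicates far apart. HSP12, a small membrane-protecting protein, stood at 260.0 and 159.0 at 2 h and at 120.0 and 122.0 at 4 h, -0.75 ± 0.49 with a 95% interval of -1.80 to 0.30. SIP18, a hydrophilin, was at 138.0 and 79.2, then at 86.0 and 75.7, and ALD3, an aldehyde dehydrogenase, at 42.4 and 18.1, then 15.2 and 20.3. In each of these 3 genes the higher 2 h value was on replicate 1, the array with the lower median. On that array the 99th percentile was 131.0 times the median, against 84.2 on 2 h replicate 2 and 89.5 and 77.4 at 4 h. The part of this in the differences of bright genes was not tested. TPS1, which makes trehalose phosphate, differed by -0.01 ± 0.29, with a 95% interval of -0.63 to 0.60, and CTT1, the cytosolic catalase, by 0.03 ± 0.29. NTH1, the neutral trehalase, stood at 18.6 and 14.9 at 2 h and at 21.6 and 22.3 at 4 h, 0.40 ± 0.28.

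In the general stress list, the arrays lay apart upward for 8 of 35 genes (22.9%, against 23.2% of all genes) and downward for 9 (25.7%, against 12.0%). At an unadjusted p under 0.05, 3 were higher (8.57%, against 5.59% of all genes) and 1 lower (against 1.85%). Of the 35, 13 had a positive difference and 22 a negative one, with a median of -0.05 that was 0.03 with quantile normalization. TKL2, a transketolase, stood at 50.8 and 33.6 at 2 h and at 22.4 and 25 at 4 h, -0.80 ± 0.29, and its 3 probe sets gave -0.89, -0.80 and -0.78. PHM8, a nucleotidase induced by low phosphate, stood at 2.73 and 2.61 at 2 h and at 4.01 and 5.04 at 4 h, 0.75 ± 0.26. Glycerol genes also went both ways. GPP2, a glycerol-3-phosphatase, stood at 2.45 and 2.63 at 2 h and at 4.09 and 5.26 at 4 h, 0.87 ± 0.24, while GPD1, the enzyme before it in the pathway, stood at 52.2 and 42 and then at 30.4 and 35.7, -0.51 ± 0.28. Adjusted p was 0.508 for GPP2 and 0.702 for GPD1 in limma.

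The transcription factor CIN5 and some drying-induced genes stood lower at 4 h on both arrays. CIN5, an AP-1-like factor of osmotic stress, stood at 8.37 and 8.29 at 2 h and at 5.1 and 5.3 at 4 h, -0.68 ± 0.24 with an adjusted p of 0.62 in limma. At 8 h it was at 1.87 and 1.43, and the step from 4 h to 8 h passed the test for this gene (adjusted p = 0.0301), the only call of that step. YKL107W, an uncharacterised gene, stood at 17.4 and 12.6 at 2 h and at 8.46 and 6.89 at 4 h, -0.95 ± 0.29. PXA2, of the peroxisomal fatty acid transporter, was at 6.03 and 4.43, then at 4.01 and 3.26, -0.52 ± 0.25. All 3 genes had their lower levels at 4 h on both arrays. FAA2, the fatty acid activating enzyme of the peroxisome, was at 11.2 and 7.74, then at 8.99 and 8.96, and its groups overlapped.

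USV1, a stress-related zinc finger protein, stood at 3.32 and 3.9 at 2 h and at 7.85 and 6.21 at 4 h, 0.96 ± 0.29. The general stress activators MSN2 and MSN4 differed by 0.16 ± 0.30 and 0.41 ± 0.26, and the heat shock factor HSF1 by -0.21 ± 0.37. Their intervals all include 0. In the list of 20 stress transcription factors, 14 differences were positive and 6 negative, with a median of 0.17, beside 0.08 for all genes. The arrays lay apart upward for 6 (against 23.2% of all genes) and downward for 2 (against 12.0%). The membrane protein YRO2, related to heat shock protein HSP30, stood at 5.87 and 6.29 at 2 h and at 7.91 and 11.5 at 4 h, 0.65 ± 0.30. ACT1, actin, stood at 99 and 80.7 at 2 h and at 80.4 and 54.9 at 4 h, -0.43 ± 0.39.

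With all 4 arrays, the proteasome list had the highest median difference of 42 gene lists. Over 34 genes the median was 0.32, beside 0.08 for all genes, and 26 differences were positive and 8 negative. At an unadjusted p under 0.05, 2 were higher (5.88%, near the 5.59% of all genes) and 0 lower (against 1.85%). Both 4 h arrays lay above both 2 h arrays for 19 (55.9%, against 23.2% of all genes) and below for 2 (5.88%, against 12.0%). The median was between 0.22 and 0.28 when any of the 4 arrays was left out and between 0.17 and 0.19 with the 3 other scalings. It was -0.63 for the step from 1 h to 2 h, which shares the 2 h arrays.

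The proteasome is built from a core with the protease sites, a ring of ATPases that unfold substrates, and lid and base subunits that receive them. Over all genes, the arrays lay apart upward for 23.2% and downward for 12.0%. Of 14 core genes, the arrays lay apart upward for 7 and downward for 1, with a median of 0.29. Among 6 ATPase genes they lay apart upward for 4 and downward for 1, with a median of 0.26, and among 13 lid and base genes upward for 7 and downward for 0, with a median of 0.34. The medians of the 3 structural groups were all positive, and differences between the groups were not tested. Members ran from -0.22 to 0.75 in the core, from -0.31 to 0.48 among the ATPases and from -0.2 to 0.62 in lid and base. PRE5, a core subunit, stood at 9.06 and 5.85 at 2 h and at 13 and 11.6 at 4 h, 0.75 ± 0.29. RPN5, a lid subunit, stood at 5.61 and 4.57 at 2 h and at 6.31 and 9.53 at 4 h, 0.62 ± 0.25. The adjusted p was 0.62 for PRE5 and 0.648 for RPN5 in limma.

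Aminoacyl-tRNA synthetases, which load tRNAs with amino acids, had a median of 0.29 over 21 genes. The arrays lay apart upward for 10 (47.6%, against 23.2% of all genes) and downward for 0 (against 12.0%), and 2 were higher at an unadjusted p under 0.05 (9.52%, against 5.59%). HTS1, the histidine enzyme, stood at 2.57 and 4.89 at 2 h and at 6.74 and 5.05 at 4 h, 0.72 ± 0.31. SES1, the serine enzyme, stood at 3.17 and 5.71 at 2 h and at 7.04 and 6.22 at 4 h, 0.64 ± 0.29. In both, 2 h replicate 2 lay close to the 4 h arrays. Without 2 h replicate 1 the list's median was 0.21, and without 2 h replicate 2 it was 0.45.

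**Figure D4:**
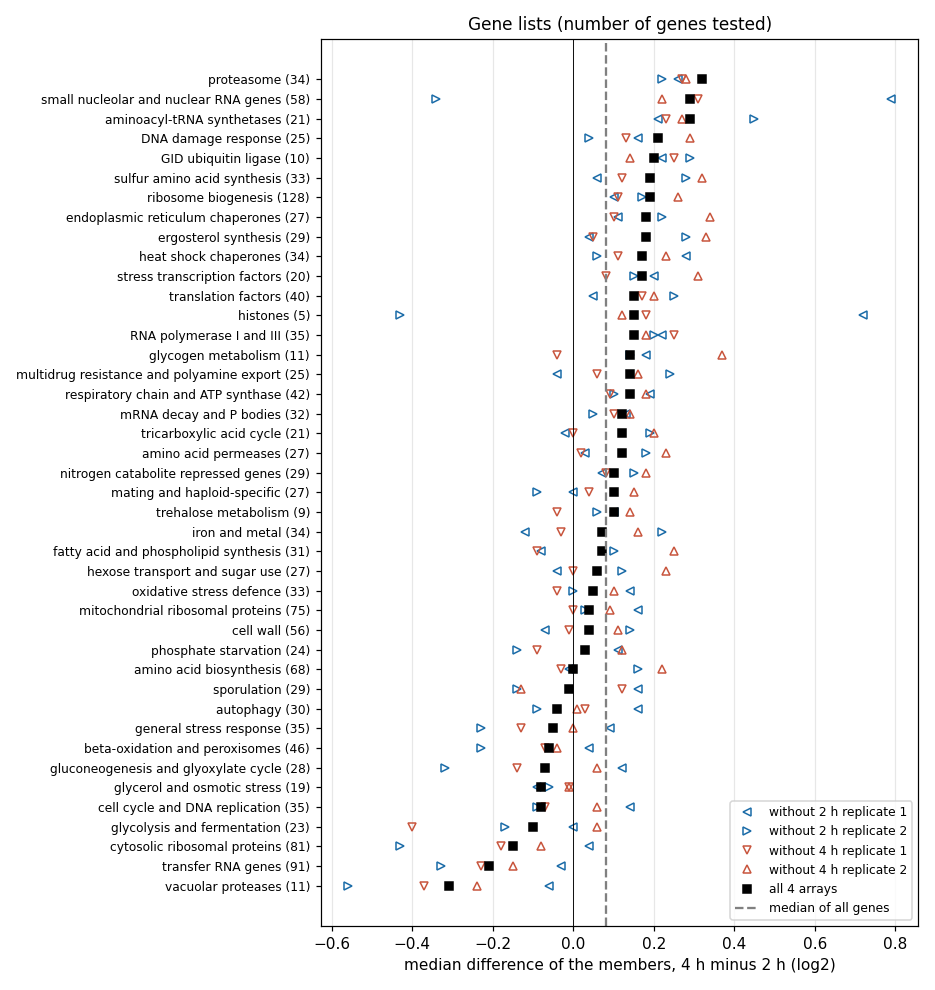
Median log2 difference, 4 h minus 2 h (x axis), of the tested genes of 42 gene lists (y axis, number of genes tested in parentheses), with all 4 arrays (squares) and with 1 array left out (open triangles). The dashed line is the median of all genes, 0.08. The medians of the small nucleolar and nuclear RNA genes run from -0.34 without 2 h replicate 2 to 0.79 without 2 h replicate 1.

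Ribosome assembly and the proteins of the ribosome had medians of opposite sign. Over 128 ribosome biogenesis genes, 11 were higher (8.59%, against 5.59% of all genes) and 1 lower (against 1.85%) at an unadjusted p under 0.05. The arrays lay apart upward for 38 (29.7%, against 23.2%) and downward for 12 (9.38%, against 12.0%), and the median was 0.19. NOP15 and IMP3, described above, were the members of smallest p and stood on opposite sides. Over 81 cytosolic ribosomal protein genes, 0 were higher (against 5.59%) and 1 lower (against 1.85%) at an unadjusted p under 0.05. Their arrays lay apart upward for 11 (13.6%, against 23.2%) and downward for 16 (19.8%, against 12.0%), and the median was -0.15. The lower gene was RPL25, whose value rests on 4 h replicate 2. That median was 0.04 without 2 h replicate 1 and -0.43 without 2 h replicate 2, so its sign depended on 1 array. RPL9A stood at 4.13 and 4.58 at 2 h and at 5.76 and 6.2 at 4 h, and probe sets of such duplicated ribosomal genes may also read their copies.

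For translation factors and the polymerases that make ribosomal and transfer RNA, medians were 0.15 over 40 genes and 0.15 over 35 genes. SUP35, the release factor eRF3, stood at 1.06 and 2.23 at 2 h and at 5.09 and 2.92 at 4 h, 1.33 ± 0.38. SUI3, the beta subunit of initiation factor eIF2, stood at 2.54 and 2.87 at 2 h and at 4.7 and 4.44 at 4 h, 0.76 ± 0.23. Its replicates lay close at both times, and it had fallen by 1.27 from 1 h to 2 h (adjusted p = 0.0206 in limma). That fall also rests on the 2 h arrays by which SUI3 was chosen, and a choice by smallest p favours close replicates. TFC4, of the tRNA gene factor TFIIIC, stood at 1.52 and 1.01 at 2 h and at 2.0 and 2.32 at 4 h, 0.80 ± 0.31. RRN5, of the ribosomal DNA upstream factor, gave -0.81, -0.08 and 0.60 on its 3 probe sets, which disagree. In the mitochondrial ribosome, MRPS17 stood at 2.19 and 0.788 at 2 h and at 1.93 and 3.93 at 4 h, with overlapping groups, and the list's median over 75 genes was 0.04.

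Transfer RNA genes were already high at 2 h, and their median level was somewhat lower on both 4 h arrays. RNA was enriched on oligo(dT), and many of their probe sets match near-identical copies, so the signal is that of tRNA families in such a preparation. From 1 h to 2 h, 41 of 91 tRNA genes had risen and 0 had fallen in limma (background 0.82% and 1.03% of all genes), with a median of 1.74. From 2 h to 4 h the median was -0.21, with 28 differences positive and 63 negative, and with quantile normalization that median was 0.06. At an unadjusted p under 0.05, 3 were higher (3.3%, against 5.59% of all genes) and 1 lower (against 1.85%). The arrays lay apart upward for 15 (16.5%, against 23.2% of all genes) and downward for 14 (15.4%, against 12.0%). The median level of the list on the log2 scale was 5.64 and 5.59 at 2 h, and 5.18 and 4.89 at 4 h, after 3.48 and 3.29 at 1 h. SUF3 was the leading exception, at 19.7 and 15.8 at 2 h and at 36.1 and 40.1 at 4 h, 1.11 ± 0.27 with an adjusted p of 0.502. IMT3, an initiator methionine tRNA, stood at 0.798 and 0.474 at 2 h and at 1.19 and 1.51 at 4 h, 1.12 ± 0.40.

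Small nucleolar RNAs guide the modification of ribosomal RNA, and here they separated the 2 h replicates more than they separated 2 h from 4 h. The median level of 58 such genes, small nuclear RNAs included, was 2.32 on 2 h replicate 1 and 0.95 on 2 h replicate 2 on the log2 scale, beside 1.99 and 2.05 at 4 h. On 34 of the 58 (58.6%), 2 h replicate 2 was the lowest of all 10 arrays, against 14.9% of all genes. The list's median difference was 0.29 with both 2 h arrays, 0.79 without replicate 1 and -0.34 without replicate 2. SNR64 stood at 2.39 and the floor at 2 h and at 1.83 and 2.34 at 4 h. SNR78 stood at 0.644 and 0.405 at 2 h and at 1.16 and 0.939 at 4 h, 1.03 ± 0.35, and SNR44 at 5.92 and 4.61, then 8.68 and 11.4, 0.93 ± 0.32. For these last genes both 4 h arrays lay above both 2 h arrays, with adjusted p of 0.612 and 0.62 in limma. Their choice by smallest p in the list favours such a separation.

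**Figure D5:**
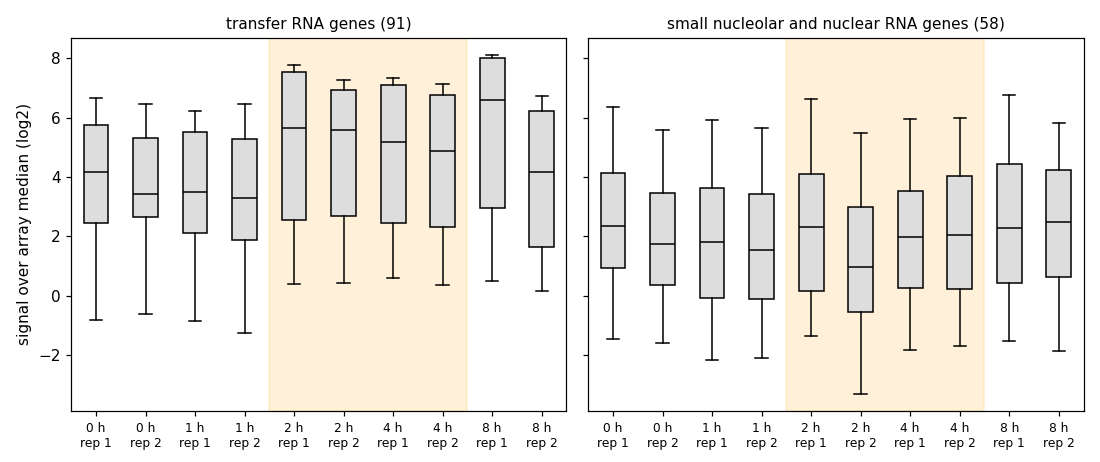
Levels (y axis, log2 of signal over the array median) of 91 transfer RNA genes (left) and 58 small nucleolar and nuclear RNA genes (right) on each of the 10 arrays (x axis), with boxes from the lower to the upper quartile, a line at the median and whiskers at the 5th and 95th percentiles; the 2 h and 4 h arrays are shaded. The tRNA medians at 2 h and 4 h lie between 4.89 and 5.64, and the median of the small RNA genes on 2 h replicate 2 is 0.95.

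No gene of energy metabolism passed. In the respiratory chain and ATP synthase, the median was 0.14 over 42 genes. The arrays lay apart upward for 16 (38.1%, against 23.2% of all genes) and downward for 2 (4.76%, against 12.0%). At an unadjusted p under 0.05, 1 was higher (2.38%, against 5.59% of all genes) and 0 lower (against 1.85%). QCR2, of complex III, stood at 14.2 and 23.2 at 2 h and at 34.4 and 24.1 at 4 h, and COX6, of complex IV, at 17.3 and 22.1, then 26.6 and 28.3. Their differences were 0.66 ± 0.31 and 0.49 ± 0.26. Glycolysis and fermentation had a median of -0.10 over 23 genes, and TDH3, the main glyceraldehyde-3-phosphate dehydrogenase, stood at 291.0 and 162.0 at 2 h and at 144.0 and 134.0 at 4 h. That median was 0.07 with quantile normalization. The tricarboxylic acid cycle had a median of 0.12 over 21 genes, and under 75th percentile scaling it was -0.01, beside -0.05 for all genes. At an unadjusted p under 0.05, 0 of the 21 were higher (against 5.59% of all genes) and 0 lower (against 1.85%).

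Over 33 genes of sulfur assimilation and sulfur amino acids the median was 0.19. The arrays lay apart upward for 15 (45.5%, against 23.2% of all genes) and downward for 2 (6.06%, against 12.0%). At an unadjusted p under 0.05, 1 was higher (3.03%, against 5.59% of all genes) and 1 lower (against 1.85%). SUL1, a sulfate permease, stood at 2.01 and 2.64 at 2 h and at 3.18 and 3.48 at 4 h, 0.53 ± 0.24. SAM2, an S-adenosylmethionine synthetase, stood on the other side at 13.8 and 14.0 at 2 h and 5.32 and 11.1 at 4 h, -0.85 ± 0.32. Its near-identical partner may share its probe sets. Other amino acid biosynthesis genes had a median of 0.00 over 68, and ARG1, argininosuccinate synthetase, stood at 1.9 and 2.26 at 2 h and at 1.9 and 0.375 at 4 h, again low on 4 h replicate 2 alone.

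In membrane and wall synthesis, ergosterol genes had a median of 0.18 over 29. At an unadjusted p under 0.05, 4 of them were higher (13.8%, against 5.59% of all genes) and 0 lower (against 1.85%). Their arrays lay apart upward for 6 (20.7%, against 23.2% of all genes) and downward for 3 (10.3%, against 12.0%). ERG1, squalene epoxidase, stood at 1.95 and 1.65 at 2 h and at 3.16 and 2.69 at 4 h, 0.70 ± 0.26, and ERG8, phosphomevalonate kinase, at 8.65 and 6.44, then 13.2 and 10.4, 0.65 ± 0.25. Of 56 cell wall genes, 8 were higher (14.3%, against 5.59%) and 0 lower (against 1.85%) at an unadjusted p under 0.05. Their median was 0.04, and with 75th percentile scaling it was -0.08, beside -0.05 for all genes. The arrays of the wall genes lay apart upward for 12 (21.4%, against 23.2%) and downward for 6 (10.7%, against 12.0%). DSE4, a glucanase of daughter cell separation, stood at 2.31 and 2.27 at 2 h and at 4.0 and 3.69 at 4 h, 0.75 ± 0.23. EGT2, another separation gene, was at 2.24 and 1.66, then at 3.76 and 2.62, and CDC9, DNA ligase, at 0.383 and 0.593, then at 1.09 and 0.893. In the cell cycle list these were the members of smallest p among 35 genes, of which 5 were higher (14.3%, against 5.59%) and 0 lower, with a median of -0.08. CPR5, a folding enzyme of the endoplasmic reticulum, stood at 4.0 and 4.76 at 2 h and at 9.09 and 7.56 at 4 h, 0.93 ± 0.26, in a list of 27 genes with a median of 0.18.

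Vacuolar proteases had the lowest median of the 42 lists with all 4 arrays, -0.31 over 11 genes, and it was -0.06 without 2 h replicate 1 and -0.56 without 2 h replicate 2. DAP2, a vacuolar dipeptidyl aminopeptidase, stood at 6.67 and 4.91 at 2 h and at 4.06 and 4.74 at 4 h, -0.38 ± 0.26. YPS1, which the list holds although it acts at the cell surface, stood at 5.83 and 10.8 at 2 h and at 12.8 and 13.5 at 4 h. Autophagy genes had a median of -0.04 over 30 genes, which was 0.16 without 2 h replicate 1. At an unadjusted p under 0.05, 0 of the 30 were higher (against 5.59% of all genes) and 0 lower (against 1.85%). PHO8, the vacuolar alkaline phosphatase, stood at 2.21 and 2.38 at 2 h and at 4.68 and 4.2 at 4 h, 0.95 ± 0.24. Its groups were well apart, which its choice by smallest p in its list favours, and its adjusted p was 0.508 in limma. DCP2, the decapping enzyme of messenger RNA decay, stood at 0.62 and 0.557 at 2 h and at 1.18 and 1.36 at 4 h, 1.11 ± 0.39, in a list of 32 genes with a median of 0.12.

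Beside the neighbouring steps, which share the 2 h or the 4 h arrays, the step from 2 h to 4 h and the one after it had few or no calls. From 1 h to 2 h, 44 genes rose (0.82%) and 55 fell (1.03%) in limma, and from 4 h to 8 h, 0 rose (0.0%) and 1 fell (0.0186%), that gene being CIN5. At an unadjusted p under 0.05, the step from 4 h to 8 h had 137 higher genes (2.55%) and 262 lower genes (4.88%). The test of the difference between the step and the one before gave 0 genes at an adjusted p under 0.05 in either direction, with 533 (9.93%) and 139 (2.59%) unadjusted. For the difference from the step after, it gave 0 genes as well, with 232 (4.32%) and 126 (2.35%) unadjusted. No gene was therefore shown to take this step differently from its neighbours.

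Among the 15 leading genes on the high side, 5 had been called from 1 h to 2 h. SUF3 had risen, by 2.31 (adjusted p = 0.00253), and HXT1, KRE6, PDH1 and HXT4 had fallen. On the low side TPO3 and MTC4 had risen over that interval. From 1 h to 4 h, 24 genes rose (0.447%) and 18 fell (0.336%) in limma. SUF3 was among those that rose and SAP185 among those that fell, and these were the only calls among the 30 leading genes. The 4 h and 2 h values of these genes were used to choose them, so their values over these intervals are given as a description.

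The yeast could hold cells of other states, and markers of mating and sporulation were summed on each array. For 15 mating and haploid-specific markers the summed multiple was 26.0 and 14.4 at 2 h and 13.9 and 12.7 at 4 h. The other 6 arrays ranged from 10.2 to 19.1, so 2 h replicate 1 alone lay above them, and 3 of the 15 markers were at the floor on some compared array. MFA1, the a-factor gene, made up much of that, at 13.4 and 3.33 at 2 h and 2.61 and 2.62 at 4 h, and its probe sets gave 1.13 and -1.35. The 15 markers had a median difference of -0.16. A longer list of 27 mating and haploid-specific genes went the other way, with a median of 0.10, 17 differences positive and 10 negative. Its member of smallest p, STE20, stood at 1.09 and 0.389 at 2 h and at 1.45 and 1.82 at 4 h, 1.32 ± 0.41. For 8 of 12 sporulation markers that were tested, the sum was 71.9 and 60.0 at 2 h and 63.1 and 64.9 at 4 h, with 2 markers at the floor on some compared array. A change in the kinds of cells and a change in RNA per cell cannot be told apart in such samples, and the part of these markers in the step was not tested.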

How the data were processed

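Linear signal intensities were used as deposited, with 1 column for every array. GCOS is named in the submitters' processing notes, with its version not given in the sources used here. A ratio table that the authors describe in the labels was not used here. Of 9335 probe sets, 60 controls were left out. Signals were divided by the array's median of the other 9275, values under 0.1 were set to 0.1, and log2 was taken. Those with a mean under -2.32 (0.2 of the median) were dropped, 6504 probe sets had 1 gene, and the brightest represented each gene, which left 5365 genes of 5656. Genes were named through the platform annotation, with symbols updated through the R64 RefSeq table. No coordinates or sequences were used.

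A limma 3.58.1 model in R 4.3.3 with group means over all 10 arrays and an intensity trend gave two-sided tests, with Benjamini-Hochberg adjustment across 5365 genes (threshold 0.05), and was tested on simulated data. The number of arrays limits the precision. Named genes were the 15 leading genes each way (smallest unadjusted p, at least 2-fold, arrays apart, since none passed), the 2 members of smallest p in each of 42 lists, 27 genes of earlier interest, and, added after seeing the values, the 5 of smallest p in each of the fits that made calls without 2 h or 4 h replicate 1. The members and lists were chosen with earlier results of these data known. Only part of the 133 named genes and of the 42 lists is described in the text, so the genes shown are a further selection. Deviations of same-numbered replicates were at most weakly correlated (r from -0.06 for 2 h with 4 h to 0.17 for 0 h with 2 h). The larger values, such as 0.13 for 0 h with 1 h, were all between times other than 4 h. Replicate numbers were not taken as pairs. Alternatives covered scaling, floor, filter, probe set rule, variance model, array weights, a replicate block and leaving out arrays. Ambiguous or unannotated probe sets were tested separately.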

Additional observations from a re-analysis of the deposited data

How the results depend on the processing

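With all 4 compared arrays, 0 genes were called under every scaling, floor, filter, probe set rule and variance model tried, with array weights, in the fit of the 4 arrays alone and with the replicate block (0 calls, 445 unadjusted, against 399 without the block); unadjusted counts over all settings ran from 278 to 764. Leaving out 1 array gave 0 to 29 calls, 0 to 29 higher and 0 to 16 lower, as described above. Leaving out the dimmest arrays of 2 h and 8 h together gave 84 calls, 83 higher and 1 lower, which included all 29 genes called without 2 h replicate 1. These calls set 1 array against 2, and the cause was not tested. Of 2900 values of named genes under 22 alternatives, 2844 kept their sign and side of the threshold, 37 became calls and 19 changed sign. Leaving out 1 of the 4 arrays at a time, HSP104 ranged from -0.53 (without 2 h replicate 2) to 0.10 (without 2 h replicate 1), HSP82 from -0.014 (without 2 h replicate 2) to 0.97, TPS1 from -0.13 to 0.10 (without 2 h replicate 1; 0.008 without 4 h replicate 2) and SIP18 from -0.77 to 0.027 (without 2 h replicate 1). Likewise FAA2 ranged from -0.32 to 0.21 (without 2 h replicate 1), MSN2 from -0.28 (without 4 h replicate 1) to 0.59, DIP5 from -0.70 to 0.28 (without 4 h replicate 2), YGR054W from -0.18 (without 2 h replicate 2) to 3.65 and SNR64 from -0.21 (without 2 h replicate 2) to 4.37. Without 4 h replicate 1 and 4 h replicate 2, URA5 was at -2.86 and 0.14 and DNF1 at -2.84 and 0.35. CTT1 was at -0.21 without 2 h replicate 2, -0.046 without 4 h replicate 1 and -0.092 with 75th percentile scaling. Without the dimmest arrays, HSP104 and TPS1 were at 0.10, SIP18 at 0.027 and FAA2 at 0.21. Of 924 list medians under the alternatives, 87 moved by more than 1 SD of the replicates.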

Other observations

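Probe sets that the annotation assigned to several genes or to none were tested apart from the genes. Of 1657 such probe sets, 0 were called for the step in limma, and the smallest adjusted p was 0.611. At an unadjusted p under 0.05 there were 149 (8.99%), beside 7.44% of the genes.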
